A study of Mus musculus with 15 samples.

Results

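Microexons are exons so short that they add only a few amino acids to a protein, and here they were taken as skipped exons of 30 nt or shorter. Of 559 such events in the deposited splicing table of a mouse muscle study, 143 lacked a value in at least 1 library and 416 had a value in all 15. Those 416 events are 4.48% of the 9294 skipped exons measured in every library. They hold 394 different exons in 331 genes, because 21 exons appear in several events (43 in all) that pair the same exon with different neighbouring exons. The rule uses exon length and completeness, not the measured values.

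The libraries came from skeletal muscle of a mouse model of myotonic dystrophy type 1, sampled at 6, 12 and 20 weeks of age. Every mouse carried TREDT960I-HOM, the transgene that holds the expanded CUG repeat. At each age there were 2 induced libraries (TREDT960I-HOM; MDAFrtTA, doxycycline from postnatal day 1), 2 no dox libraries (TREDT960I-HOM; MDAFrtTA, no doxycycline) and 1 dox control library (TREDT960I-HOM without MDAFrtTA, with doxycycline). MDAFrtTA supplies the rtTA protein that turns on the repeat transgene when doxycycline is present, so no dox and dox control libraries together form the 9 controls against 6 induced libraries. Gastrocnemius was the source of 10 libraries and quadriceps of 5. Quadriceps was unevenly spread: it gave 2 of the 6 induced libraries, 3 of the 6 no dox libraries and 0 of the 3 dox controls, and quadriceps of both arms was present only at week 20, with 1 induced and 2 control libraries. Replicate 2 of the no dox libraries at week 6 was from a male and all others were from females. The labels do not name the promoter that drives MDAFrtTA or say whether any animals were pooled.

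In myotonic dystrophy type 1, RNA with an expanded CUG repeat binds muscleblind-like (MBNL) proteins, which are splicing regulators that promote the mature muscle pattern of exon inclusion or skipping. Microexons are recognised with difficulty because their splice sites lie so close together, and their inclusion depends on enhancer sequences in the flanking introns and on tissue-specific splicing factors. They are best known from neurons, where many of them add residues to the surface of proteins of vesicle traffic and of the cytoskeleton. Muscle includes a set of its own.

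The measure is percent spliced in (PSI), a fraction from 0 (the exon is always skipped) to 1 (always included), deposited to 2 decimals per event and library. The number of reads behind a value is unknown, so no counting interval can be given. PSI holds no expression level, and the tissue could be checked only by whether muscle genes had events: 11 of 17 skeletal muscle markers did, among them Ttn, Neb, Ryr1, Atp2a1, Clcn1 and Myh4. So did 2 of 8 nerve and Schwann cell markers, 2 of 4 fat markers, 3 of 4 endothelial markers, 3 of 4 immune markers and 2 of 4 fibroblast markers. In whole muscle, a change in the mix of cells and a change of splicing within cells cannot be told apart in PSI. Pearson's r of PSI over all 31267 events between pairs of libraries lay between 0.943 and 0.968. The labels tie no library to a numbered animal, and the spread that the p-values rest on is therefore the spread among libraries, which may be technical in part.

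The exon of Pgap2, a gene that acts in the remodelling of GPI anchors, shows what such an exon looks like. It is printed because it is the microexon whose sequence the RefSeq tables used here contain. It lies on GRCm38.p6 at chr7:102222782-102222801 on the plus strand, and the 20 nt of the exon are in capitals, with 4 bases of intron before and 6 after it in lower case.
Pgap2 microexon: acagGTGATGGCATGCAGCCACAGgtaaga
The intron before it ends in ag and the intron after it starts with gt, the usual bases at splice sites. This exon was measured in 2 events with different downstream exons, at a control mean of 0.187 ± 0.073 (SD, n = 9) in one and 0.294 ± 0.158 in the other. The induced means were 0.145 ± 0.068 (SD, n = 6) and 0.232 ± 0.040, and the groups overlapped in both events.

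The lengths ran from 3 to 30 nt with a median of 21 nt. Of the 416 events, 316 (76.0%) had a length divisible by 3, which keeps the reading frame whether the exon is in or out, while among longer skipped exons 4070 had such a length and 4808 did not. The most frequent lengths were 24 nt with 52 events and 27 nt with 51. The flanking introns had a median length of 1620 nt upstream and 1540 nt downstream, against 1863 and 1818 nt over all skipped exons tested.

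Microexons were included less than longer exons in control muscle. The median control PSI was 0.257 for microexons, 0.700 for longer exons of a length divisible by 3 and 0.731 for longer exons of other lengths. A control mean below 0.05 was found for 88 microexons (21.2%), a mean above 0.95 for 34 (8.17%) and a mean in between for 294 (70.7%). Above 0.95 stood 17.9% of the longer exons divisible by 3 and 19.6% of the others. These are descriptions of the exon classes, with no test.

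Inclusion differed with length among the microexons themselves. The median control PSI was 0.168 for the 86 events of 3 to 12 nt, 0.223 for 136 of 13 to 21 nt and 0.402 for 143 of 22 to 27 nt. Just inside the length limit, the 51 events of 28 to 30 nt had a median of 0.314, and just outside it the 91 skipped exons of at most 33 nt had a median of 0.427. Microexons that keep the frame were at a median of 0.268, and the 100 that do not were at 0.213. The spread between control libraries was wider as well among exons with a control mean between 0.05 and 0.95. The median SD was 0.0696 for microexons against 0.0618 for longer exons divisible by 3 and 0.0606 for the rest. In the same range of means it was 0.0884 for the exons just outside the length limit, so a wider spread was not particular to microexons. The median PSI over all microexons in a single library lay between 0.22 and 0.30 and did not set the arms apart, as induced libraries ran from 0.24 to 0.30 and controls from 0.22 to 0.27.

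**Figure D1:**
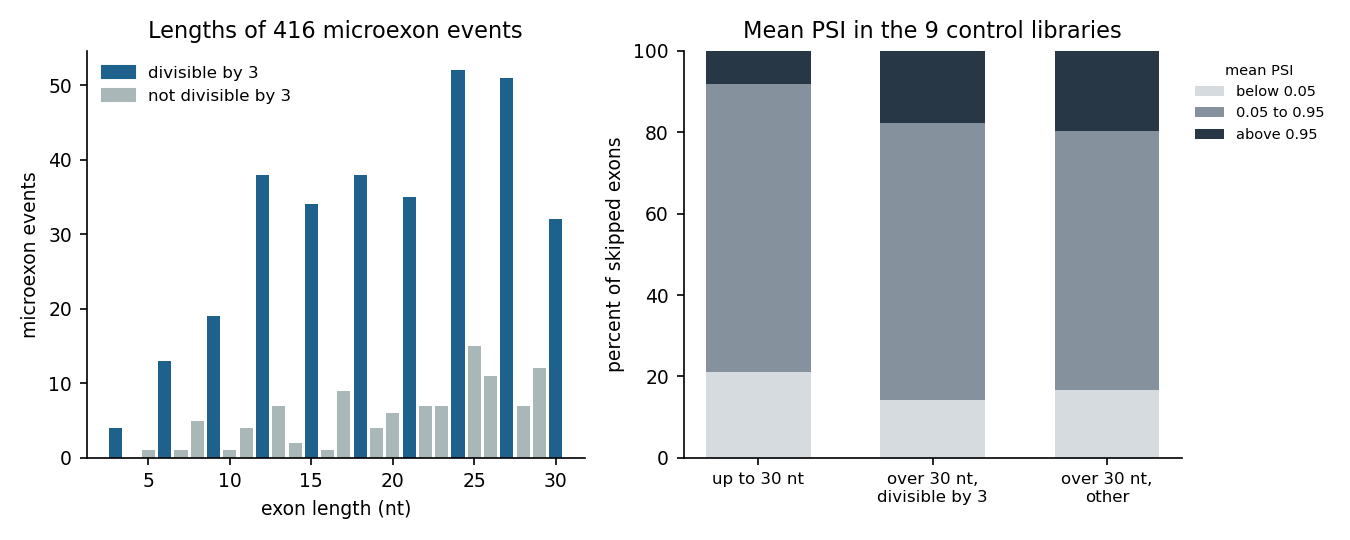
Left, number of microexon events (y axis) at each exon length in nt (x axis), with lengths divisible by 3 in blue. Right, percent of skipped exons (y axis) whose mean PSI over the 9 controls was below 0.05, between 0.05 and 0.95 or above 0.95, for microexons and 2 classes of longer exons: 8.17% of microexons stood above 0.95, against 17.9% and 19.6% of the longer exons.

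The shortest exons were at both ends of the scale. A 3-nt exon adds or removes a single amino acid. Clasp2, which binds the plus ends of microtubules, included its 3-nt exon at 0.946 ± 0.028 (SD, n = 9) in controls, and its relative Clasp1 included its own 3-nt exon at 0.093 ± 0.041. The 3-nt exon of Mon2, a protein of Golgi and endosome traffic, was at 0.078 ± 0.028, and that of Tbc1d4, the Rab GTPase-activating protein through which insulin controls glucose uptake in muscle, at 0.009 ± 0.003. The 5-nt exon of Septin7, a filament-forming GTPase, was almost always included, at 0.963 ± 0.019. In induced libraries these exons were at 0.907, 0.072, 0.055, 0.018 and 0.958 in the same order. Their fitted differences were no larger than 0.039 in size.

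Of the 331 genes, 53 held several different microexons, 114 exons in all: 47 genes had 2 and 6 had 3 or more. In Arhgef1, Iffo1, Inpp4a, Itsn1, Yap1 and Zfyve27 the 2 exons overlapped in position, so they share bases and are not separate stretches. The control means of a gene's microexons lay within 0.1 of each other in 22 genes and spanned more than 0.5 in 17. Arhgef1, Itsn1, Yap1 and Zfyve27, with overlapping exons, are among the 22. Cltc, the clathrin heavy chain, included a 21-nt exon at 0.734 and a 12-nt exon at 0.001. Abi1, an adaptor of actin regulation, included a 15-nt exon at 0.843 and another of the same length at 0.094. Kif21a, a kinesin motor, held exons of 15, 21 and 21 nt at 0.409, 0.256 and 0.937. At the other extreme, the 24-, 21- and 24-nt exons of Synj1, a phosphoinositide phosphatase of endocytosis, were at 0.161, 0.120 and 0.179, and both 12-nt exons of Enah, an actin regulator, at 0.019 and 0.021. Clasp1 and Macf1, a protein that links microtubules to actin, held 4 microexons each, at 0.057, 0.019, 0.193 and 0.093 in Clasp1 and at 0.502, 0.011, 0.011 and 0.687 in Macf1.

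PSI of a microexon depended on the event it was read from. For the 21 exons found in several events, the control means lay within 0.1 of each other in 10, and the median gap was 0.101. The 27-nt exon of Mark2, a kinase that releases proteins from microtubules, had the widest gap, with control means of 0.233, 0.369 and 0.838 in its 3 events. The 12-nt exon of Stx16, a SNARE of the trans-Golgi network, had control means of 0.282 and 0.837. Both examples were chosen after their values were seen. Values below belong to the event named, and the events of the same exon are not independent of each other.

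The main question was whether microexon inclusion differs in muscle that expresses the repeat. No microexon was called in the comparison of induced with all control libraries, where a call needed a limma adjusted p under 0.05 over all 31267 events together with a PSI difference of 0.1 or more. Over all events 2 were called (0.0064%). Unadjusted p was under 0.05 for 34 of the 416 microexons (8.17%), against 6.26% of all events, and on a logit scale 0 microexons were called as well. With a difference of at least 0.1 besides, 11 microexons were higher in induced libraries (2.64%, against 0.95% of all events) and 7 were lower (1.68%, against 0.937%). The median microexon had a difference of 0.0197 in size, against 0.0133 over all events, and 26 microexons (6.25%) reached 0.1, against 3.98% of all events. Among longer skipped exons, 5.36% of those divisible by 3 reached 0.1, and 3.62% of the others. Of the 91 exons just outside the length limit 12.1% reached it, with a median size of 0.0294. Larger differences than over all events were therefore not particular to microexons. The microexon shares rest on exons that vary more between controls than longer exons as a whole do, as given above. Whether that spread sets these shares was not tested.

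The groups did not overlap for 2 microexons, Ap1b1 and Clip1, both higher in induced libraries (0.481% of microexons). With the same rule, all 6 induced libraries beyond all 9 controls and means at least 0.1 apart, 0.064% of all events were higher and 0.0192% were lower. These counts are descriptions.

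Ap1b1 encodes the large beta subunit of AP-1, the adaptor that recruits clathrin to the trans-Golgi network and endosomes. Its 21-nt exon (chr11:5033242-5033262) was at 0.22 and 0.37 in the induced libraries of week 6, at 0.29 and 0.31 in those of week 12 and at 0.23 and 0.25 in those of week 20. Control libraries ran from 0.09 to 0.16, with a median of 0.13. Every induced library lay above every control, and inclusion was low in both arms. The means were 0.278 ± 0.057 (SD, n = 6) and 0.130 ± 0.023 (SD, n = 9), a fitted difference of 0.148 (SE 0.023) with a limma adjusted p of 0.146. In quadriceps the induced libraries were at 0.37 and 0.25 and the controls at 0.09, 0.11 and 0.14. The 0.37 came from week 6, which had no quadriceps control. Groups that do not overlap over all libraries cannot overlap within a muscle, so the quadriceps values are no separate evidence. The difference was 0.119 in a fit to gastrocnemius libraries alone. Without week 6 induced replicate 1 it was 0.177 and passed the call, with a limma adjusted p of 0.00536. A second microexon of Ap1b1, of 9 nt, was at a control mean of 0.006.

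Clip1 (CLIP-170) is a protein that tracks the growing plus ends of microtubules. Its 6-nt exon (chr5:123581592-123581597) was at 0.16 and 0.52 in the week 6 induced libraries, at 0.23 and 0.38 in those of week 12 and at 0.14 and 0.17 in those of week 20. Controls ran from 0.03 to 0.11, with a median of 0.05. The groups did not overlap, and the week 20 pair lay closest to the controls. The means were 0.267 ± 0.152 (SD, n = 6) and 0.063 ± 0.028 (SD, n = 9), a fitted difference of 0.203 (SE 0.043, limma adjusted p = 0.298). The 0.52 came from the quadriceps library of week 6. In a fit to gastrocnemius libraries alone the difference was 0.154, and in quadriceps the induced libraries were at 0.52 and 0.17 against 0.10, 0.04 and 0.07 in controls. Without week 6 induced replicate 1 the exon was called, at a difference of 0.262 and a limma adjusted p of 0.00536. The other microexon of Clip1, of 21 nt, was at a control mean of 0.006.

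Clasp1 had the largest fitted difference of the microexons named for the arms. CLASP proteins stabilise microtubules and were first found as partners of CLIP proteins. The 24-nt exon (chr1:118541675-118541698) was at 0.27 and 0.60 in the week 6 induced libraries. Those of week 12 were at 0.58 and 0.67 and those of week 20 at 0.46 and 0.27, with controls from 0.14 to 0.27 and a median of 0.17. Of the induced libraries 4 lay above all controls, and 1 at week 6 and 1 at week 20 equalled the highest control. The means were 0.475 ± 0.173 (SD, n = 6) and 0.193 ± 0.047 (SD, n = 9). The fitted difference was 0.282 (SE 0.051, limma adjusted p = 0.225, exact permutation p = 0.0006, two-sided and unadjusted). Without week 6 induced replicate 1 it was called, at 0.340 and a limma adjusted p of 0.016. In quadriceps the induced libraries were at 0.60 and 0.27 and the controls at 0.26, 0.20 and 0.14. The other microexons of Clasp1 had control means of 0.057, 0.019 and 0.093. The exact permutation test, here and below, reassigned the arms over all 15 libraries without regard to week or muscle. It was run only on named microexons, and those named for the arms were picked by a small limma p. A small permutation p therefore follows in part from the choice and is no separate evidence.

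**Figure D2:**
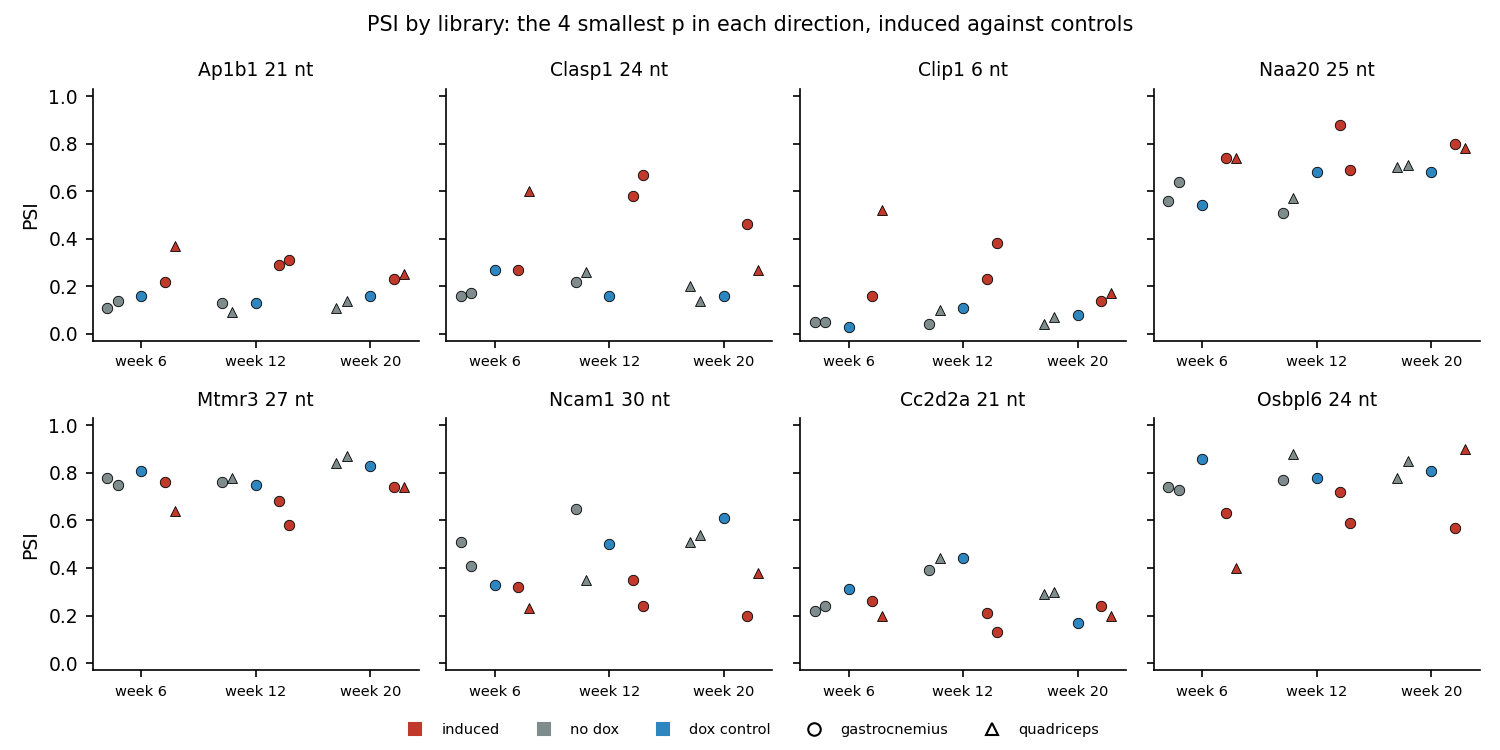
PSI (y axis) in each of the 15 libraries by week (x axis) for the 4 microexons with the smallest limma p in each direction; colour gives the arm and shape the muscle. For Ap1b1 and Clip1 every induced library stands above every control. In Osbpl6 5 induced libraries lie below all controls and 1, at 0.90, above them, and in the other 5 panels at least 1 induced library reaches the range of the controls.

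Other microexons with higher values in induced libraries reached the control range in at least 1 library. The 25-nt exon of Naa20, the catalytic subunit of an N-terminal acetyltransferase, was at 0.69 to 0.88 in induced libraries with a median of 0.76 and at 0.51 to 0.71 in controls with a median of 0.64. Its means were 0.772 ± 0.065 and 0.621 ± 0.076 (SD, n = 6 and 9), with 5 of 6 induced libraries above all controls and a limma adjusted p of 0.423. The 24-nt exon of Cpeb2, an RNA-binding protein that controls translation, was at 0.41 to 0.73 in 5 induced libraries but at 0.11 in week 6 induced replicate 1, against 0.08 to 0.36 in controls. Its difference was 0.238 (SE 0.071, limma adjusted p = 0.566), and without that library it was 0.332 with a limma adjusted p of 0.0341. The 30-nt exon of Acly, the enzyme that makes acetyl-CoA for lipid synthesis, was at 0.462 ± 0.113 against 0.314 ± 0.064 and 3 of 6 induced libraries exceeded all controls.

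The groups also overlapped in the other exons on the higher side. The 15-nt exon of Sh3glb2, an endophilin that binds curved membranes, was at 0.365 ± 0.076 in induced and 0.253 ± 0.060 in control libraries, with week 6 induced replicate 1 at 0.22 and the other 5 at 0.35 to 0.42. The 21-nt exon of Exoc1, a subunit of the exocyst, was at 0.652 ± 0.114 and 0.506 ± 0.084. The 9-nt exon of Ap1g1, the gamma subunit of the same AP-1 adaptor that holds Ap1b1, was at 0.373 ± 0.144 and 0.222 ± 0.135. For these 3 exons, 4, 4 and 2 of the 6 induced libraries lay above all controls, and the limma adjusted p-values were 0.640, 0.706 and 0.757. The 21-nt exon of Myh11, the smooth muscle myosin heavy chain, is described with the muscles below. The last of the 11 past both limits was the 17-nt exon of Mtf2, outside the naming rule and mentioned after its values were seen, at 0.622 ± 0.106 against 0.518 ± 0.079.

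On the lower side no microexon separated the arms. Mtmr3 encodes a phosphatase of the myotubularin family that acts on phosphoinositides. Its 27-nt exon (chr11:4484671-4484697) was at 0.76 and 0.64 in week 6 induced libraries, at 0.68 and 0.58 in those of week 12 and at 0.74 in both of week 20, against 0.75 to 0.87 in controls with a median of 0.78. In this exon 5 of 6 induced libraries lay below all controls. The means were 0.690 ± 0.070 and 0.797 ± 0.043, a difference of -0.107 (SE 0.025, limma adjusted p = 0.403, exact permutation p = 0.0014, unadjusted).

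Ncam1, the neural cell adhesion molecule that marks nerve endings, satellite cells and immature or denervated fibres, had a 30-nt exon (chr9:49550540-49550569) with one of the larger differences. It was at 0.32 and 0.23 in week 6 induced libraries, at 0.35 and 0.24 in those of week 12 and at 0.20 and 0.38 in those of week 20, against 0.33 to 0.65 in controls with a median of 0.51. The ranges overlapped, with 4 of 6 induced libraries below all controls. The difference was -0.203 (SE 0.051, limma adjusted p = 0.435, exact permutation p = 0.0030, unadjusted).

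The other microexons on the lower side differed in how many libraries carried the difference. The 21-nt exon of Cc2d2a, a protein of the base of the cilium, was at 0.207 ± 0.045 in induced and 0.311 ± 0.096 in control libraries. The 24-nt exon of Osbpl6, an oxysterol-binding protein relative, was at 0.40 to 0.72 in 5 induced libraries and at 0.90, above all controls, in the quadriceps library of week 20, against 0.73 to 0.88 in controls. The 9-nt exon of Macf1 was at 0.573 ± 0.096 and 0.687 ± 0.039, with 4 of 6 induced libraries below all controls. For Cc2d2a, Osbpl6 and Macf1 the limma adjusted p-values were 0.497, 0.670 and 0.698. Microexons of Dhx30, Dclk2, Lmo7, Eef1d and Catsper2 completed the 10 with the smallest p on this side, with differences from -0.152 to -0.104 and limma adjusted p-values from 0.714 to 0.894.

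A single library stood nearest to the controls more often than the others. Among the 20 microexons named for the arms, week 6 induced replicate 1, a gastrocnemius library, was the induced library closest to the control mean, or farthest past it, in 10. The quadriceps library of week 20 held that place in 7, and both the other week 6 library and week 12 induced replicate 1 in 0. When week 6 induced replicate 1 was left out, 4 microexons were called for the arms: Ap1b1, Clip1, Clasp1 and Cpeb2. Leaving out any other single library gave 0. The share of all events called without week 6 induced replicate 1 is not given here, so the 4 cannot be read as particular to microexons. The part of this library in the other differences was not tested.

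**Figure D3:**
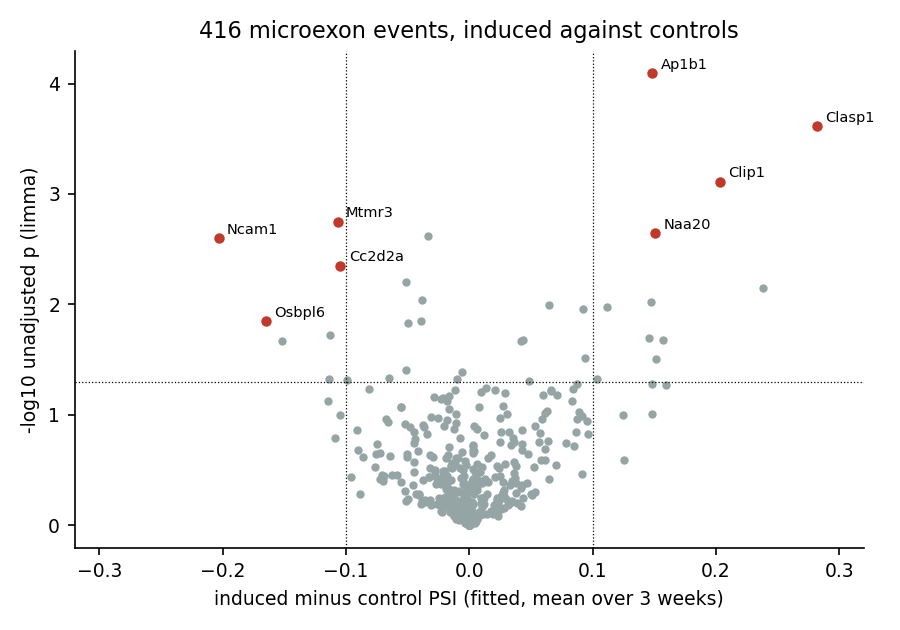
Fitted induced minus control PSI (x axis, mean over the 3 weeks) against -log10 of the unadjusted limma p (y axis, log scale) for the 416 microexon events. Dotted lines mark a difference of 0.1 in either direction and an unadjusted p of 0.05, and the named points are the 4 with the smallest p in each direction among those past 0.1. None has an adjusted p under 0.05, and the smallest, for Ap1b1, is 0.146.

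Grouping the microexons by the role of their genes gave the following. A list of 65 genes with exons known to respond to MBNL or to be mis-spliced in myotonic dystrophy had 25 genes with a microexon, 38 events in all. None was called, 7 had an unadjusted p under 0.05, 1 of these with a difference of at least 0.1 higher (Clasp1) and 2 lower (Mtmr3 and Ncam1), and the median difference was -0.0047, against 0 over all events. As shares of the 38 events these are 18.4% under 0.05, 2.63% higher and 5.26% lower, against 6.26%, 0.95% and 0.937% of all events. The list was chosen with earlier results of these data known, so its shares are descriptions. The other 4, in Ldb3, Clasp2, Pdlim7 and Pdlim5, had differences under 0.1 in size. The 15-nt exon of Ldb3, a protein of the Z-disc (chr14:34569713-34569727), was at 0.82 to 0.93 in induced libraries and 0.70 to 0.87 in controls, with means of 0.873 ± 0.040 and 0.781 ± 0.054 and a limma adjusted p of 0.649. The Z-disc proteins Pdlim7 and Pdlim5 had lower means in induced libraries: the 17-nt exon of Pdlim7 was at 0.880 ± 0.048 against 0.930 ± 0.024 in the event with the smaller p (0.99 against 0.991 in the other), and the 18-nt exon of Pdlim5 at 0.712 ± 0.086 against 0.777 ± 0.042.

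Other microexons of this list had an unadjusted p of 0.05 or more. The 24-nt exon of Mef2c was at 0 in all 15 libraries, as were 4 other microexons, and the 21-nt exon of Mef2d, another muscle transcription factor of that family, was at 0.953 ± 0.010 against 0.95 ± 0.016. The 24-nt exon of Mef2a was at 0.850 ± 0.046 against 0.842 ± 0.058. The 18-nt exon of Ryr1, the calcium release channel of the sarcoplasmic reticulum, was at 0.797 ± 0.099 against 0.821 ± 0.066, and the fitted difference was -0.024 (SE 0.041). The 21-nt exon of Dtna, a dystrophin-associated protein, was at 0.933 ± 0.054 against 0.951 ± 0.028. The 9-nt exon of Tnnt2, cardiac troponin T, varied widely, from 0.12 to 0.38 in induced and from 0.09 to 0.64 in control libraries. For the 24-nt exon of Mtmr1, a myotubularin relative, the means were 0.692 ± 0.133 and 0.672 ± 0.158. The 15-nt exon of Sptan1, a spectrin of the membrane skeleton, was at 0.553 ± 0.042 against 0.601 ± 0.043. The 9-nt exon of Map4k4, a kinase of stress signalling, was at 0.687 ± 0.117 against 0.60 ± 0.095, and the 24-nt exon of Fhod1, a formin of actin assembly, at 0.660 ± 0.109 against 0.638 ± 0.062. A p that misses the threshold does not show that these exons did not differ.

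A further group of genes in this list held microexons that muscle of either arm mostly skipped. The 27-nt exon of Kif1b, a kinesin motor, was at 0.02 to 0.09 in controls and 0.06 to 0.10 in induced libraries. The 15-nt exon of Spag9, a scaffold of kinase signalling, did not exceed 0.02 in any library. The 21-nt exon of Cacna2d1, the auxiliary subunit of the muscle calcium channel, was at 0.034 ± 0.016 in controls and 0.032 ± 0.015 in induced libraries. The 24-nt exon of Ank2, an ankyrin, was at 0.057 ± 0.033 in controls and 0.042 ± 0.010 in induced libraries.

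Among 25 genes of clathrin, endocytosis and vesicle traffic, 37 events were measured, 0 were called and 3 passed an unadjusted p of 0.05 with a difference of at least 0.1. All 3 were higher, in Ap1b1, Exoc1 and Ap1g1 (8.11% of the 37, against 2.64% of all microexons and 0.95% of all events), and the median difference was 0.0039. The 6-nt exon of Ap2m1, a subunit of the AP-2 adaptor of endocytosis, was at 0.908 ± 0.028 in induced and 0.867 ± 0.026 in control libraries. The role list for the cytoskeleton, its motors and adhesion had 30 genes and 48 events, with 0 called. Past both limits, 1 was higher (Clasp1, 2.08%, against 0.95% of all events) and 2 were lower (Ncam1 and Macf1, 4.17%, against 0.937%). Clip1, a microtubule protein with a higher microexon in induced libraries, was on no role list and is missing from these counts. These groups were low in inclusion, with a median control PSI of 0.209 for vesicle traffic and 0.113 for the cytoskeleton. The 13 events of sarcomere, Z-disc and muscle membrane genes had a median of 0.777, with 0 called and 0 past both limits. The role lists, like the MBNL list, were chosen with earlier results of these data known, so their shares are descriptions. Some events stand in several lists: Clasp1 and Ncam1, and Mtmr3 below, were also counted in the MBNL list.

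Of the other lists, the 25 events of kinases, phosphatases and signalling genes had 1 past both limits, lower (Mtmr3). RNA-binding and splicing genes had 11 events with 1 past both limits, higher (Cpeb2), and a median control PSI of 0.042. Ion channel and calcium genes (8 events) and transcription and chromatin genes (10 events) had 0 past both limits. The 2 events of metabolic genes held 1, lower (Osbpl6). In lists this short a single event is a large share, and nothing is read from it. No event of these lists was called. Of the 262 events in no list, 6 were past both limits higher and 3 lower. As shares these are 2.29% and 1.15%, against 0.95% and 0.937% of all events.

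The weeks were compared next, with 2 induced and 3 control libraries each. No microexon was called at any week by limma. At week 6, 24 microexons had an unadjusted p under 0.05, and with a difference of at least 0.1 there were 14 higher and 2 lower (3.37% and 0.481%, against 1.13% and 1.16% of all events; 0.0032% of all events were called). At week 12 there were 39, with 14 higher and 16 lower (3.37% and 3.85%, against 1.67% and 1.74%; 0.0% called). At week 20 there were 24, with 6 higher and 9 lower (1.44% and 2.16%, against 1.22% and 1.45%; 0.0032% called). The smallest limma adjusted p among microexons was 1 at week 6, 0.392 at week 12 and 0.759 at week 20. The 3 weeks share no libraries, but a single fit to all 15 libraries gave the muscle term and the spread for each, so their tests are not independent. On a logit scale 0 were called at each week.

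Fnbp1, an F-BAR protein that bends membranes during endocytosis, had the smallest p at week 12. Its 15-nt exon (chr2:31044882-31044896) was at 0.71 and 0.69 in the week 12 induced pair, against 0.31, 0.10 and 0.29 in controls of that age. At week 20 the order was the opposite, with 0.20 and 0.27 in induced and 0.43, 0.45 and 0.47 in control libraries, and at week 6 the groups overlapped. The fitted difference was 0.467 (SE 0.091, limma adjusted p = 0.392) at week 12 and -0.215 (SE 0.089) at week 20. The same exon measured in a second event was at 0.32 and 0.23 in that pair against 0.21, 0.09 and 0.30 in controls, with overlap.

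Other microexons had their groups apart at week 12. The 12-nt exon of Ampd1, the AMP deaminase of skeletal muscle (chr3:103075407-103075418), was at 0.85 and 0.77 against 0.95, 0.94 and 0.93 in controls, a difference of -0.132 (SE 0.026, limma adjusted p = 0.392). At weeks 6 and 20 its induced libraries were at 0.87 to 0.95 and its controls at 0.87 to 0.97. The 9-nt exon of Kif3a, a kinesin-2 motor, was at 0.31 and 0.20 against 0.10, 0.12 and 0.09 at week 12. The 29-nt exon of Dhx30, an RNA helicase, was at 0.05 and 0.14 against 0.53, 0.45 and 0.41, a difference of -0.404 (SE 0.10), while at week 6 the no dox replicate 1 library was at 0.05 as well. In Cc2d2a the week 12 libraries were at 0.21 and 0.13 against 0.39, 0.44 and 0.44.

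At week 6 the 27-nt exon of Dclre1b, a nuclease of telomere protection, was at 0.67 and 0.74 in induced and 0.35, 0.19 and 0.40 in control libraries, a difference of 0.475 (SE 0.134, limma adjusted p = 1). At week 12 its dox control library was at 0.74, above both induced libraries at 0.54 and 0.63. At week 20 the 12-nt exon of Kcnma1, the BK potassium channel, was at 0.35 and 0.22 against 0.07, 0.10 and 0.05. The 30-nt exon of Oscp1 was at 0.16 and 0.50 at that week against 0.12, 0.08 and 0.09, so that 1 library carried most of the difference. The 12-nt exon of Stx16, in the event with the lower control mean, was at 0.21 and 0.19 against 0.27, 0.44 and 0.59 at week 20, whereas at week 12 its induced libraries were at 0.34 and 0.42 against 0.17, 0.17 and 0.29. On the lower side at week 6, Osbpl6 was at 0.63 and 0.40 against 0.74, 0.73 and 0.86, and Pdlim5 at 0.68 and 0.64 against 0.76, 0.78 and 0.84.

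**Figure D4:**
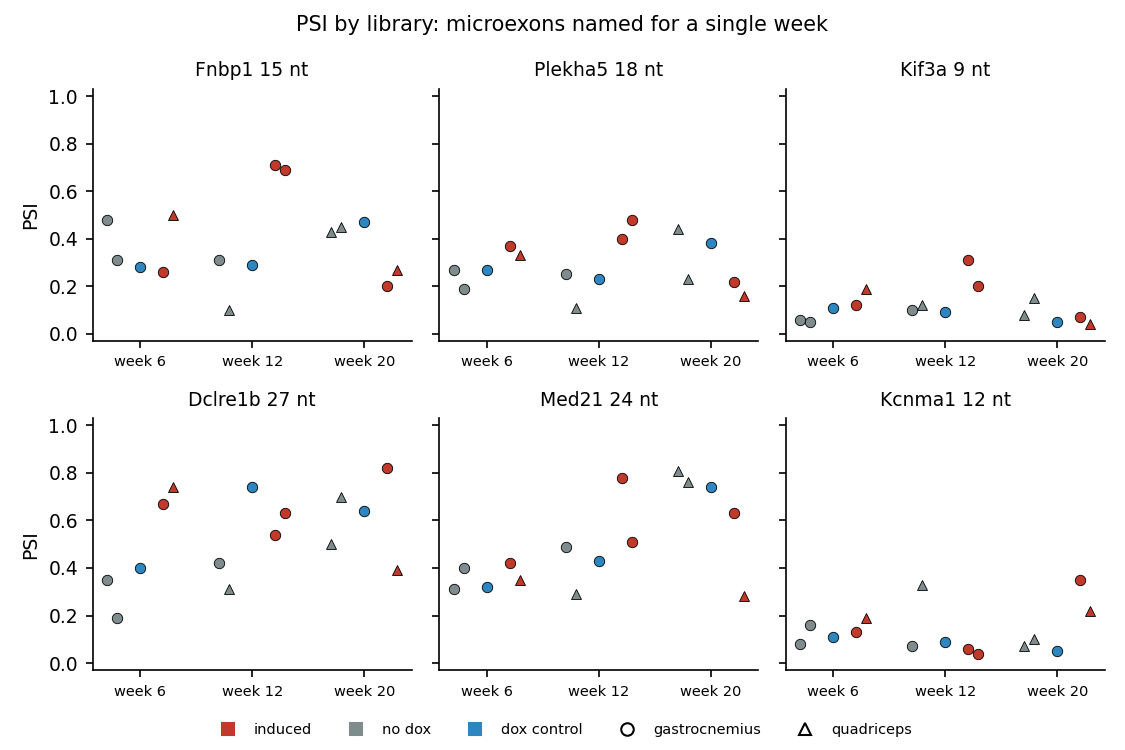
PSI (y axis) in each of the 15 libraries by week (x axis) for 6 microexons named for a week or for a difference between weeks; colour gives the arm and shape the muscle. For Fnbp1 the induced libraries stand above the controls at week 12 (0.71 and 0.69) and below them at week 20 (0.20 and 0.27).

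A limma F test asked whether the difference between the arms was the same at the 3 ages. No microexon was called. Unadjusted p was under 0.05 for 22 microexons (5.29%), against 4.14% of all events, and 0.0032% of all events were called. On a logit scale 1 was called, the 18-nt exon of Ewsr1, an RNA-binding protein, whose PSI lay between 0.00 and 0.02 in all 15 libraries. The F test has no minimum difference. On that scale Ewsr1 also had a limma adjusted p of 0.000241 for the arms and 4.86e-06 at week 20. Its PSI differences there were 0.0028 and 0.01, too small for a call. In the main fit the smallest limma adjusted p of the F test was 0.976, for Fnbp1. Plekha5, a phosphoinositide-binding protein, followed: its 18-nt exon was at 0.37 and 0.33 in week 6 induced libraries, at 0.40 and 0.48 in those of week 12 and at 0.22 and 0.16 in those of week 20. In its controls the ranges were 0.19 to 0.27, 0.11 to 0.25 and 0.23 to 0.44, so the induced pair was above the controls at the first 2 ages and below them at week 20. Induced libraries above all controls of one age and below all controls of another were found for 15 microexons (3.61%), against 2.89% of all events, a share close to the background.

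The 2 muscles did not differ in a called microexon by limma (0.0032% of all events were called). Unadjusted p was under 0.05 for 27 microexons, and with a difference of at least 0.1 there were 5 higher and 5 lower in quadriceps (1.20% each, against 1.25% and 1.32% of all events), shares close to the background. On a logit scale 0 were called.

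Myh11 had the smallest p between muscles. Smooth muscle myosin comes from the walls of blood vessels in a skeletal muscle sample. Its 21-nt exon (chr16:14248580-14248600) was at 0.70, 0.64, 0.60 and 0.57 in induced gastrocnemius libraries and at 0.27 to 0.43 in the 6 control gastrocnemius libraries, which did not overlap. In quadriceps it was at 0.16 and 0.08 in induced and at 0.17, 0.32 and 0.15 in control libraries, which did. The means were 0.628 ± 0.056 (SD, n = 4) and 0.345 ± 0.057 (SD, n = 6) in gastrocnemius and 0.120 ± 0.057 (SD, n = 2) and 0.213 ± 0.093 (SD, n = 3) in quadriceps. The fitted difference between muscles was -0.305 (SE 0.072, limma adjusted p = 0.537). For the arms it was 0.157 (SE 0.058, limma adjusted p = 0.713) over all libraries, 0.283 in a fit to gastrocnemius alone and -0.155 in quadriceps at week 20, from 1 induced library against 2 controls.

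A limma term for a different induced effect in the muscles, added after these values were seen, called 0 microexons and 0.0% of all events. Unadjusted p was under 0.05 for 29 of the 416 microexons (6.97%), against 4.95% of all events. The smallest p belonged to the 26-nt exon of Lysmd4, at 0.658 (SE 0.135, limma adjusted p = 0.842). For Myh11 the term was -0.368 (SE 0.091, limma adjusted p = 0.852). Markers of smooth muscle other than this gene were not examined, and PSI gives no level for them.

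The 25-nt exon of Tcf7l2, a transcription factor of Wnt signalling, was at 0.29 and 0.33 in induced quadriceps and at 0.30, 0.27 and 0.35 in control quadriceps libraries. In gastrocnemius 9 of the 10 libraries were at 0.12 to 0.22, and week 6 no dox replicate 2, from the male, was at 0.42. The difference between muscles was 0.153 (SE 0.043, limma adjusted p = 0.576). The 27-nt exon of Mark2, in the event with the highest control mean, was lower in quadriceps by 0.141 (SE 0.047, limma adjusted p = 0.615) in the fit, with quadriceps libraries from 0.56 to 0.87 and gastrocnemius libraries from 0.73 to 0.93. Porcn, the enzyme that adds a lipid to Wnt proteins, had a 15-nt exon with a fitted difference of -0.144 (SE 0.054, limma adjusted p = 0.620). It was at 0.32 and 0.34 in induced quadriceps against 0.50 to 0.59 in induced gastrocnemius, whereas in controls the muscles overlapped.

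**Figure D5:**
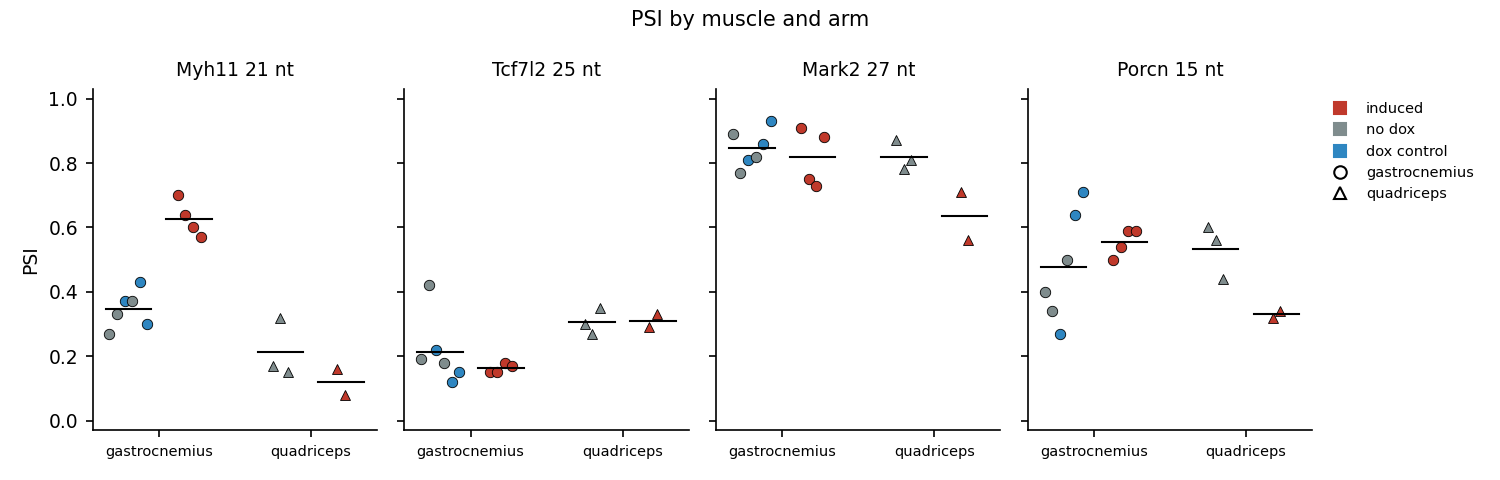
PSI (y axis) by muscle and arm (x axis) for 4 microexons named for the muscles; points are libraries, coloured by arm, the left column of each muscle holds controls and the right induced libraries, and black lines are means. In Myh11 the 4 induced gastrocnemius libraries (0.57 to 0.70) stand above all other libraries, and the induced quadriceps libraries are at 0.08 and 0.16.

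Among controls, week 20 was compared with week 6, where all 3 libraries of week 6 are gastrocnemius and 2 of 3 at week 20 are quadriceps, so age rests on the muscle term of the fit. No microexon was called by limma (0.0% of all events) and 28 had an unadjusted p under 0.05. With a difference of at least 0.1, 15 were higher and 2 lower at week 20 (3.61% and 0.481%, against 1.46% and 1.5% of all events). On a logit scale 0 were called. The same 3 control libraries of week 6 were the reference for the week 6 induced libraries, where 14 were higher and 2 lower. These counts are therefore not independent, and the part of the shared reference in them was not tested.

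The largest of these was in Med21, a subunit of the Mediator complex of transcription. Its 24-nt exon (chr6:146648256-146648279) was at 0.31, 0.40 and 0.32 in controls of week 6, at 0.49, 0.29 and 0.43 at week 12 and at 0.81, 0.76 and 0.74 at week 20. Weeks 6 and 20 did not overlap, and the fitted difference was 0.510 (SE 0.095, limma adjusted p = 0.658). Induced libraries of week 20 were at 0.63 and 0.28, below all controls of that age. The 15-nt exon of Adgrl1, a latrophilin adhesion receptor, was in 1 of its 2 events at 0.76, 0.82 and 0.83 at week 6 and at 0.34, 0.62 and 0.35 at week 20, a difference of -0.492 (SE 0.113, limma adjusted p = 0.674). In the other event it was at 0.58, 0.35 and 0.42 at week 6 and at 0.60, 0.56 and 0.79 at week 20, the opposite order. Porcn was at 0.40, 0.34 and 0.27 at week 6 and at 0.56, 0.44 and 0.71 at week 20, also without overlap. The 12-nt exon of Ptprk, a receptor tyrosine phosphatase, was at 0.20 to 0.27 at week 6 and at 0.33 to 0.47 at week 20.

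The dox control libraries were set against the no dox libraries to show what doxycycline and the lack of MDAFrtTA do without induction. No microexon was called by limma (0.0% of all events), 14 had an unadjusted p under 0.05, and 4 were higher and 3 lower with a difference of at least 0.1 (0.962% and 0.721%, against 1.04% and 0.806% of all events). On a logit scale 0 were called. The 30-nt exon of Musk, the receptor kinase that organises the neuromuscular junction, was at 0.18, 0.26 and 0.21 in dox control libraries, below all 6 no dox libraries at 0.27 to 0.57, while induced libraries, which also received doxycycline, were at 0.22 to 0.54. The fitted difference was -0.191 (SE 0.075, limma adjusted p = 1). The 27-nt exon of Fip1l1, a factor of mRNA 3' end formation, was at 0.64, 0.85 and 0.82 in dox control and at 0.45 to 0.76 in no dox libraries, and induced libraries at 0.52 to 0.76 overlapped both.

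Against each kind of control alone, the induced differences of the leading microexons listed here kept their sign. For Ap1b1 the difference was 0.166 against no dox and 0.10 against dox control libraries, and for Clip1 it was 0.233 and 0.128. Clasp1 was at 0.293 and 0.255, Mtmr3 at -0.112 and -0.087 and Ncam1 at -0.220 and -0.208. These fits share the induced libraries, and none of the microexons was called in either. The exons were picked for a small p against these same controls, so their sign was largely fixed in advance. Lmo7, also named for the arms, was at -0.187 against no dox and at 0.020 against dox control libraries.

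Of the 143 microexon events with a missing value, 62 had at least 4 induced and 6 control values and were compared without a test. In 0 of them did the groups separate with means 0.1 or more apart, and the remaining 81 were not compared.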

How the data were processed

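Poly-A RNA from 15 muscle samples was read in pairs of 100 bases, as the labels' protocols state. The authors deposited a table of percent spliced in (PSI), a fraction from 0 to 1 per event and library, named as MISO output. TopHat and mm10 come from the submitters' processing notes, while versions, annotation and any read minimum are not given in these sources. Depth is unknown, and the fits therefore gave all events equal weight whatever their reads.

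Columns were matched to libraries by the library identifier in the titles. The column names number the week 6 induced pair the other way round, and the titles were followed. The second block of the event name gave the middle exon, on mm10 counted from 1. Symbols came from the file where they lay at the position (401 events) or from RefSeq of GRCm38.p6 (13), 2 events stayed unnamed, and 3 symbols turned into dates were restored.

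Differences were fitted with limma 3.58.1 (R 4.3.3; variance trend, robust, two-sided, Benjamini-Hochberg over 31267 events), with a mean per week and arm plus muscle, averaged over 3 weeks for the arms. Dox control against no dox used condition, week and muscle. The fit was tested on simulated data. Alternatives were a logit scale, a mean PSI of 0.05 to 0.95, no trend, no muscle term, single libraries left out, a single muscle or kind of control, and a replicate block. Members, lists and tests were chosen with earlier results of these data known. Named were separated microexons, the 10 smallest p per direction for the arms and 4 elsewhere with a difference of at least 0.1, the best of each gene in the MBNL list, genes with several microexons and the 5 shortest. Sequences of the other microexons, splice sites and motifs were not analysed here.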

Additional observations from a re-analysis of the deposited data

Results flagged for a closer look

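In 40 sets of 6 induced or 9 control libraries, of the 20 microexons named for the arms, 3 had a library far from the rest of its group, where chance gives about 1 in 20. Week 6 no dox replicate 1 was the lowest control for the 15-nt exon of Eef1d, a translation elongation factor subunit, at 0.20, and for the 21-nt exon of Exoc1 at 0.31. Week 6 induced replicate 1 was the lowest induced library for the 15-nt exon of Sh3glb2, at 0.22.

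Of the 35 microexons named for the arms or for a week, 6 had every induced library above all controls of its age at one week and below them at another. The 35 were chosen partly for large differences at single weeks, so their count cannot be set against a general share. Opposite weeks of this kind were found for 15 of all microexons (3.61%) and for 2.89% of all events. Differences in means are given here in weeks 6, 12 and 20. Plekha5 (18 nt) had 0.107, 0.243 and -0.160. Fnbp1 (15 nt) had 0.467 at week 12 and -0.215 at week 20. Kcnma1 (12 nt) had -0.113 at week 12 and 0.212 at week 20, and Stx16 (12 nt) had 0.170 and -0.233 at those ages. Med21 (24 nt) had 0.242 at week 12 and -0.315 at week 20. Atm (9 nt), a kinase of the DNA damage response, had 0.177 at week 6 and -0.228 at week 12. In the limma interaction test over all 31267 events the smallest adjusted p among microexons was 0.976.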

How the results depend on the processing

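Depth per event is unknown, each week has 2 induced libraries, and quadriceps is unevenly spread, which limits every comparison. The count of called microexons, 0 in each comparison, ranged over single libraries left out from 0 to 4 for the arms, 0 to 1 at week 6, 0 to 7 at week 12 and 0 to 1 at week 20. A lone remaining library is then assumed to vary like the others. The shares of all events called in these fits are not given here, so the counts cannot be read as particular to microexons. The 4, and the 1 at week 6 (Clip1), arose without week 6 induced replicate 1. The 7 arose without week 12 induced replicate 2 (Marchf7, Pdzd2, Slc38a10, Adgrl2, Ptk2, Tet2 and Kif3a), and those at week 20 without induced replicate 1 (Oscp1) or 2 (Dnm3). The logit scale gave 1 for the difference between weeks (Ewsr1). The replicate block gave 0 called, with r of same-numbered deviations of 0.0096, -0.0118 and 0.0154 at weeks 6, 12 and 20. These r cover all events at once, and muscle differs within some of the pairs. They cannot decide whether same-numbered libraries share a small effect or one on few events. The 2 microexons without overlap became 1 at a minimum of 0.2 (Clip1) and 1 at a length limit of 15 nt (Clip1). They became 6 in gastrocnemius alone (with Osbpl6, Naa20, Axl and Myh11). With a library left out they were 2 to 4 (4 without week 6 induced replicate 1). Groups of fewer libraries separate more easily by chance, and the shares of all events that separate under these settings are not given here. Quadriceps has both arms only at week 20, with 1 induced library and 2 controls, and there signs turned for Eef1d (0.020), Macf1 (0.015), Osbpl6 (0.085) and Myh11 (-0.155), and against dox controls alone for Lmo7 (0.020). The cause was not tested. Of 1384 values of named microexons under alternatives, 1372 kept their sign and side of the threshold and 7 passed it. Much of this was fixed in advance. The logit scale, the limits on mean PSI and the fit without trend keep the differences of the main fit. No named value was called in the main fit, so none could lose a call. Size was not counted either: Acly went from 0.147 to 0.01 in quadriceps alone and kept its sign.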
